A study of Mus musculus with 32 samples.

Results

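Blood-lineage transcripts in a mouse stromal cell line were described here by 9 genes, namely Cd53, Plac8, Fcer1g, Cd74, Hba-a1, Hba-a2, Ptprc, Lyz2 and Coro1a, of the 21829 mouse genes in the table of unique molecular identifiers (UMIs), each of which counts a cDNA molecule without its amplified copies. All 9 had a row. They were picked from their values in the comparison described below, 6 because they were higher with azacitidine and 3 because they were not, so their differences between the groups are given as a description with no test. The samples were RNA from EL08-1D2, a mesenchymal stromal line derived from mouse embryonic liver, either untreated (16 libraries, "without") or treated with azacitidine (16 libraries, "with"), and n = 16 per group holds for each mean below. No other agent or allele is given for either group, and the labels used here give neither dose nor time. Both groups are the same line and come from a study of azacitidine and stromal cells in myelodysplastic syndromes. The labels name no clone or culture, and nothing says that the libraries were separate cultures, so p-values reflect no more than how far these libraries scatter, and that scatter may be technical.

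Blood cells and stromal cells of a blood-forming organ live side by side but use different gene programmes. Azacitidine resembles cytidine; the part that enters DNA binds the methyltransferases that copy methyl marks, so that these marks on CpG dinucleotides are lost as cells divide. In cells that do not belong to a lineage, promoters of lineage genes that hold few CpG are often methylated and silent, and the same genes also depend on lineage transcription factors such as PU.1 (gene Spi1) in myeloid cells and GATA1 and KLF1 in erythroid cells. Among the 9 genes Cd53, Ptprc and Coro1a serve most leukocytes, Plac8, Lyz2 and Fcer1g serve myeloid cells, Cd74 serves antigen-presenting cells and the pair of Hba genes serves red cells.

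Libraries without azacitidine held 818619 to 3210801 UMIs (median 1619400.5) and libraries with azacitidine 1226861 to 5039721 (median 1966208.5), so low genes had more depth in the treated group. Levels are therefore given as CPM, that is UMIs scaled to a common library total, on library sizes scaled by the trimmed mean of M values (TMM), and low genes also as the UMIs summed over the 16 libraries of a group, with the ratio of the scaled sums and its exact 95% interval, which covers counting error only. At these depths 3 UMIs in the sum of a group is the limit that a count of 0 allows. Replicate numbers 1 to 4, 5 to 8, 9 to 12 and 13 to 16 form 4 runs, called 1 to 4 in that order, that the labels do not explain; values are given by run where they differ. Scaling by the ERCC spike-in RNAs instead of TMM raised the median log2 fold change of all tested genes by 0.31.

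The promoters of the members show how unlike their CpG content is, which is why 6 are printed. RefSeq windows from 250 bases before to 50 bases after a start (build GRCm38.p6, also called mm10) were used for 8 members, with 11 starts in all. Cd74 was left out of this count and its promoter is not reported here. The 250 bases before a start are written below from 5′ to 3′ on the strand of the gene with each CpG dinucleotide in capitals. They are chr5:100572206-100572455 on the minus strand for Plac8, chr3:106790150-106790399 on the minus strand for Cd53, chr1:171234350-171234599 on the minus strand for Fcer1g, chr11:32283422-32283671 on the plus strand for Hba-a1, chr10:117282273-117282522 on the minus strand for Lyz2 and chr7:126704817-126705066 on the minus strand for Coro1a.
Plac8: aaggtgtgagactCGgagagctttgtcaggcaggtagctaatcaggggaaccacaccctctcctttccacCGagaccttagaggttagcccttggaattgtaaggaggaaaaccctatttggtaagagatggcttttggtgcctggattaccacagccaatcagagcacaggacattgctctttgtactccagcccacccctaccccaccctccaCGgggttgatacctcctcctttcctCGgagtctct
Cd53: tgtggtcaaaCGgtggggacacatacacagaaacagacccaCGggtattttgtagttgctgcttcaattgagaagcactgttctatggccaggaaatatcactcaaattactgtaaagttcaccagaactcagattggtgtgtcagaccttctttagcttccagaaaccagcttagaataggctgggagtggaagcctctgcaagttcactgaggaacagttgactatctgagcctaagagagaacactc
Fcer1g: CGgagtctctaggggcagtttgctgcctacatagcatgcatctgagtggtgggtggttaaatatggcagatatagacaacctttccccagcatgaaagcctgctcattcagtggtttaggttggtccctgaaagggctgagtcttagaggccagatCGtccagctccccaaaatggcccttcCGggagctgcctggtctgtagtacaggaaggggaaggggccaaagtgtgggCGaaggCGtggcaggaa
Hba-a1: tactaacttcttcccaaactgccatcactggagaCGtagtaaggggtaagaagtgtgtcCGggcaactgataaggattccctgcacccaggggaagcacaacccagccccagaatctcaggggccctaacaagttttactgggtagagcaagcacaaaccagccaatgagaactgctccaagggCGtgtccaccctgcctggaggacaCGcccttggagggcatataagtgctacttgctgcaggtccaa
Lyz2: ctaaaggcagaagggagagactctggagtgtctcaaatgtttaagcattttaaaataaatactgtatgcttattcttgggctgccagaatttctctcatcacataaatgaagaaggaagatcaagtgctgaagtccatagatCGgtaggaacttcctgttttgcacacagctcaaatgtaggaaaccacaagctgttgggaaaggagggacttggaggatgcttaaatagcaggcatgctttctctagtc
Coro1a: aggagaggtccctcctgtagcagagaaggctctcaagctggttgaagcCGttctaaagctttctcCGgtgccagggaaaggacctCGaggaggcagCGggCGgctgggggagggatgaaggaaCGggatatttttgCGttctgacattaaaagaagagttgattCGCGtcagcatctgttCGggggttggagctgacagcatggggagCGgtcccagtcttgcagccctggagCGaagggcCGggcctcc

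The motif counted was CG, which reads the same on both strands, and it was counted over the whole window, with the 50 bases after the start that are not printed. Over all 32817 windows of this length the median was 7 CpG and the quartiles were 3 and 20. The window of Coro1a held 19 CpG, 13 of them in the printed bases, and 28.0% of all windows held at least as many. The window of its other start held 10. Fcer1g held 7 (5 in the printed bases), Plac8 5 (4 in the printed bases, and 9 in the window of its other start), Cd53 4 (2 in the printed bases), and Hba-a1 and Hba-a2 4 each, and 38.1% of all windows held 4 or fewer. Lyz2 held 1 CpG, and 14.1% of all windows held no more. Ptprc held 4 and 2 at its starts. With Cd74 left out, Lyz2 thus held the fewest CpG in a window and Coro1a the most. The members were picked on their response to azacitidine, so nothing is read from CpG content about that response. Methylation was not measured in this series, so these counts describe the sequence alone.

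**Figure D1:**
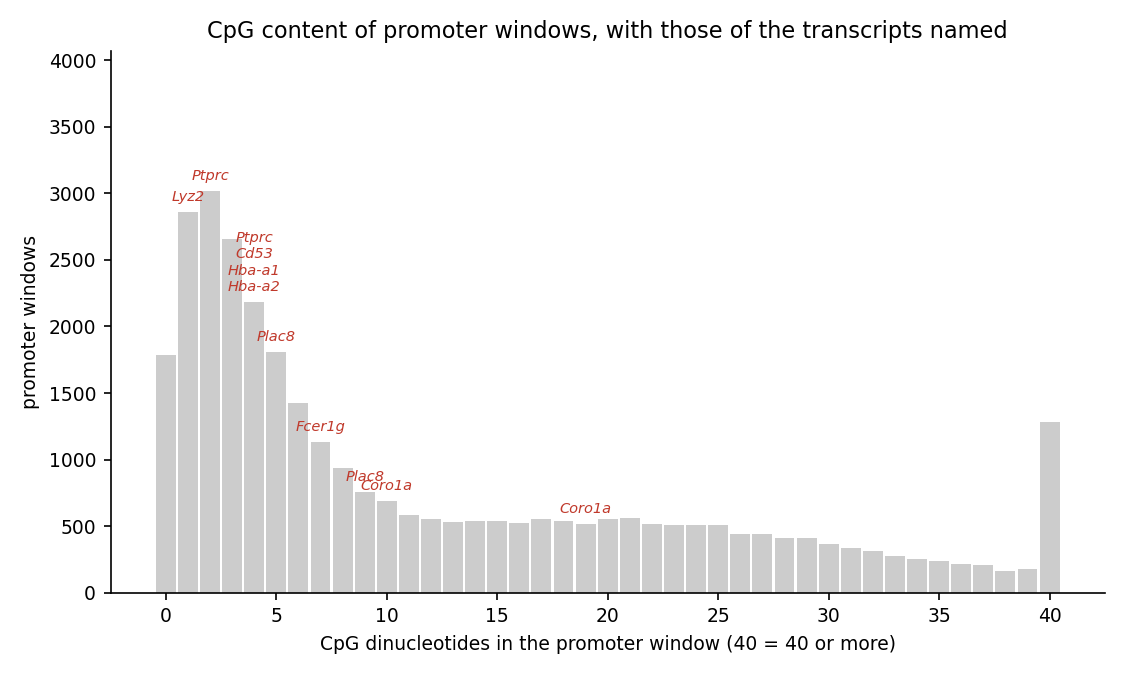
Number of CpG dinucleotides in promoter windows of 300 bases (x axis) against the number of windows (y axis) for all 32817 RefSeq windows, with the windows of the members marked. Coro1a lies at 19 and, for its other start, at 10, and Lyz2 lies at 1. Cd53, Plac8, Fcer1g, Hba-a1 and Hba-a2 lie between 4 and 9.

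Of the 9 members, 2 passed the filter on low counts, Cd53 and Plac8, and Plac8 passed it only through the treated group. In edgeR's quasi-likelihood test over the 9344 genes that passed, 3.65% were called higher and 2.00% lower with azacitidine (Benjamini-Hochberg adjusted p under 0.05), and both members were among the higher. Without the filter 3.21% of 21822 genes were called higher and 0.729% lower, and Cd53, Plac8, Fcer1g, Cd74, Hba-a1 and Hba-a2 were among the higher. Since the members were picked on this contrast, nothing is read from those counts. In RNA from whole cultures, more cells that carry a transcript and more RNA per cell cannot be told apart.

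Cd53 encodes a tetraspanin of the leukocyte surface. It lies at chr3:106759921-106790149 on the minus strand. It had 199 UMIs without and 521 with azacitidine and was seen in all 16 libraries of both groups. Its level without the drug ran from 3.16 to 10.9 CPM with a median of 7.71, and with the drug from 9.28 to 19.8 with a median of 13.5. Every library but 1 of the treated group lay above the highest untreated library. The means were 7.33 ± 2.18 and 14.0 ± 2.77 CPM (SD), a log2 fold change of 0.92 (SE 0.13). Cd53 was thus already transcribed in the untreated line, and its ratio of 1.86 (1.58 to 2.20) was the lowest among the 6 higher members.

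Ptprc encodes CD45, the phosphatase that defines nucleated blood cells. It lies at chr1:138062861-138175708 on the minus strand. It had 1 UMI in 1 untreated library and 4 UMIs in 4 treated libraries, a ratio of 2.84 with an interval of 0.281 to 140. A difference was not detectable at this depth. Coro1a encodes coronin 1A, an actin-binding protein of leukocytes, at chr7:126699773-126707787 on the minus strand. It had 64 UMIs without and 75 with azacitidine, a ratio of 0.832 (0.588 to 1.18), and its means were 2.47 ± 0.82 and 1.72 ± 0.90 CPM (SD). None of the 16 treated libraries lay above the highest untreated library. The log2 ratio of Coro1a was −0.27 on TMM sizes and changed sign to 0.04 on spike-in scaling. The last 26 bases of Coro1a overlap Bola2 on the opposite strand, which had 5662 UMIs in all libraries, and whether counting used strand is not stated, so the level of Coro1a is uncertain.

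Plac8 encodes a small cysteine-rich protein that myeloid and lymphoid cells make, and that is named for its expression in placenta. It lies at chr5:100553725-100572245 on the minus strand. The 16 untreated libraries held 35 UMIs, with 13 of them above 0, and the 16 treated libraries held 583. Untreated libraries ran from 0 to 3.14 CPM (median 1.06) and treated libraries from 8.80 to 22.9 (median 14.9). The groups did not overlap. Such a gap with the higher values in the treated group was found for 0.278% of the filtered genes and 0.206% of all genes. The means were 1.24 ± 0.92 and 14.7 ± 4.29 CPM (SD), the log2 fold change was 3.47 (SE 0.22), and the ratio of sums was 11.8 (8.41 to 17.1).

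Lyz2 encodes lysozyme M of macrophages and granulocytes and is a usual marker of both. It lies at chr10:117277331-117282321 on the minus strand. It had 14 UMIs in 9 untreated libraries and 12 UMIs in 7 treated libraries, so it stayed at a trace level in both groups. The ratio was 0.609 (0.257 to 1.42), and the interval holds both a fall and a small rise. With the treated library number 1 left out, which held 4 of the 12 UMIs, the ratio was 0.465.

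Fcer1g encodes the common gamma chain of Fc receptors, a signalling subunit with an immunoreceptor tyrosine-based activation motif (ITAM). It lies at chr1:171229572-171234365 on the minus strand. It had 4 UMIs in 4 untreated libraries and 65 UMIs in 14 treated libraries, a ratio of 11.5 (4.30 to 43.6). Treated libraries ran from 0 to 4.05 CPM with a median of 1.31, untreated libraries from 0 to 1.04 with a median of 0. In the treated group 11 of 16 libraries lay above the highest untreated library. The means were 0.17 ± 0.34 and 1.75 ± 1.26 CPM (SD), so most libraries without the drug held no molecule of it and most with the drug held a few. With each of the 32 libraries left out in turn its ratio ran from 10.5 to 14.8.

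Cd74 encodes the invariant chain that escorts MHC class II molecules. It lies on chromosome 18. It had 19 UMIs in 11 untreated libraries and 86 UMIs in 15 treated libraries, a ratio of 3.21 (1.94 to 5.60). Untreated libraries ran from 0 to 2.53 CPM (median 0.57) and treated libraries from 0 to 5.39 (median 1.44), and 4 treated libraries exceeded the highest untreated library. The groups overlapped broadly. Treated library number 7 alone held 23 of the 86 UMIs, and the ratio without it was 2.65.

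Hba-a1 and Hba-a2 encode the alpha chains of adult hemoglobin. They lie at chr11:32283511-32284465 and chr11:32296489-32297298, 12.0 kb apart on the plus strand. Hba-a1 had 36 UMIs without and 204 with azacitidine, and Hba-a2 36 and 192. Hba-a1 ran from 0 to 2.58 CPM (median 1.23) without and from 0.51 to 9.90 (median 4.69) with azacitidine. Hba-a2 ran from 0 to 2.94 CPM (median 1.02) without and from 1.16 to 14.0 (median 4.53) with it. For each of the pair 13 of 16 treated libraries lay above the highest untreated library. The ratios were 4.02 (2.81 to 5.91) and 3.79 (2.64 to 5.57). The 14.0 CPM of Hba-a2 came from treated library number 14, and the ratio without that library was 3.40. The pair is nearly a copy: the longest transcripts matched at 99.8% of 538 aligned bases and the promoter windows at all 297 bases compared, so reads could be split between them by the authors' counting and the value of each alone is uncertain.

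**Figure D2:**
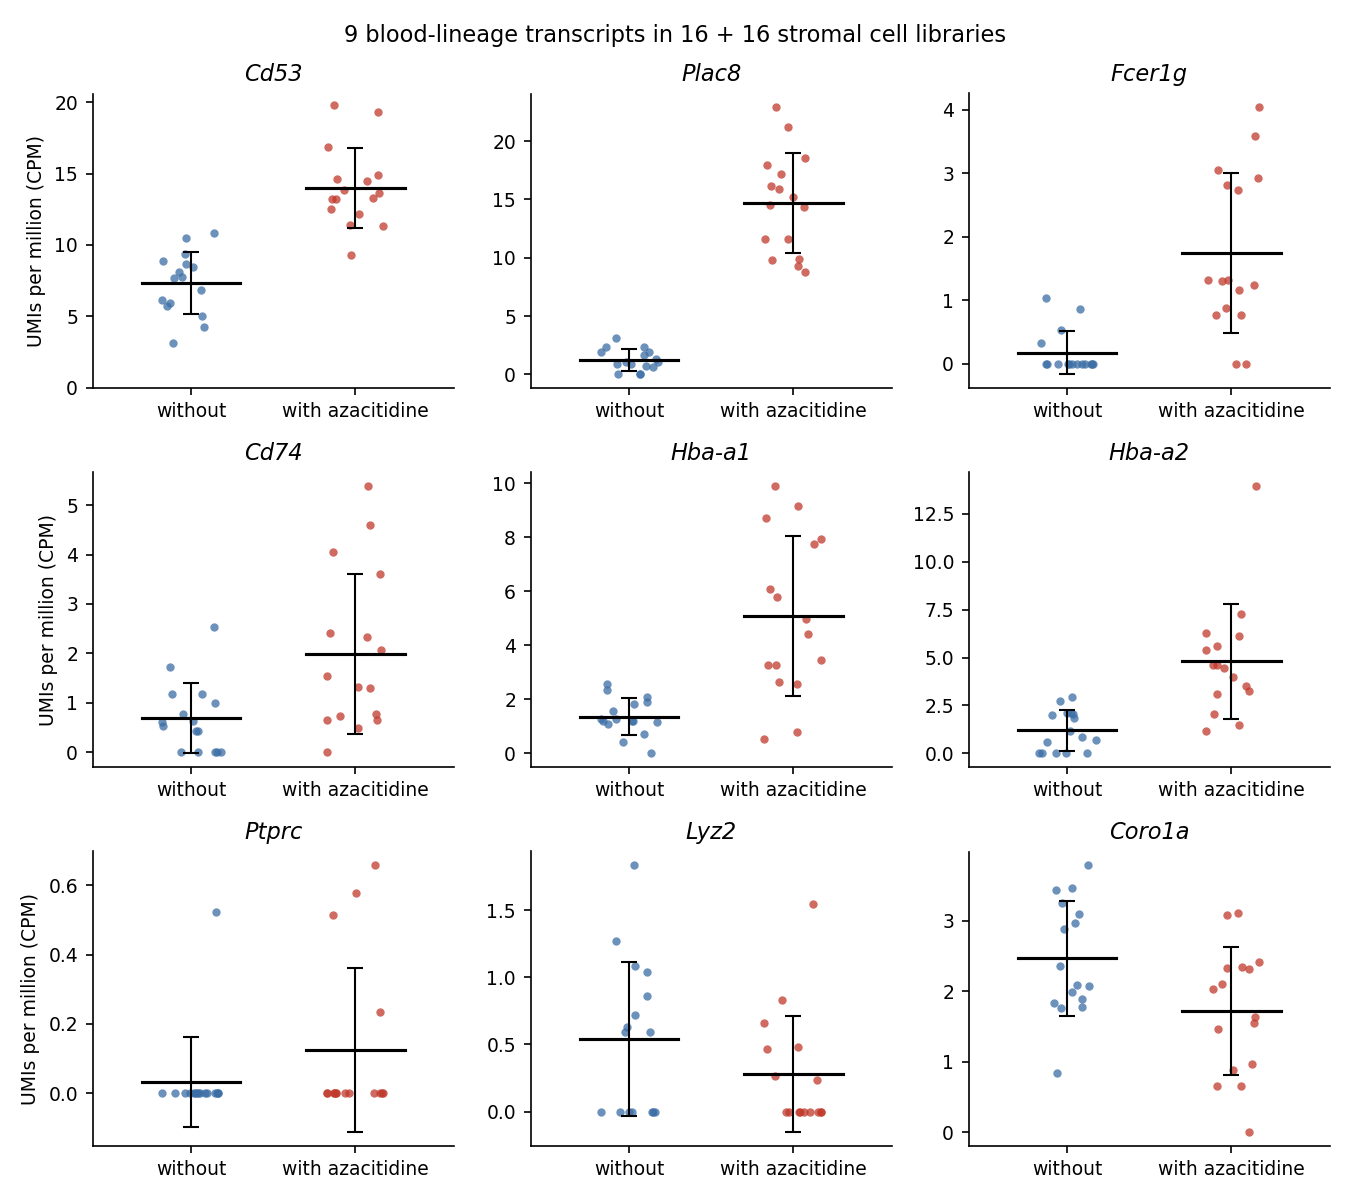
Level of each member in each library, in CPM on TMM library sizes, without (16 points) and with azacitidine (16 points), and the group mean with its SD. Plac8 shows no overlap between the groups, Cd53 overlaps by 1 treated library, and for Coro1a none of the treated libraries exceeds the highest untreated library.

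Among the 6 higher members the ratio was 11.8 for Plac8 and 11.5 for Fcer1g, between 3.21 and 4.02 for Cd74 and the Hba genes, and 1.86 for Cd53. Counting intervals of Plac8 and Cd53 did not overlap, whereas that of Fcer1g reached from 4.30 to 43.6 and overlapped those of Cd74 and of both Hba genes. The interval of Ptprc covered every ratio seen among the members. An earlier look at these data set 5 libraries apart, numbers 1 and 2 without and numbers 1, 2 and 4 with azacitidine. Without them the log2 ratio was 3.48 for Plac8 (3.56 with them), 3.81 for Fcer1g (3.53), 1.81 for Cd74 (1.68), 1.96 for Hba-a1 (2.01), 2.00 for Hba-a2 (1.92) and 0.92 for Cd53 (0.89). Of the lower members Lyz2 moved most, to −1.44 from −0.72.

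**Figure D3:**
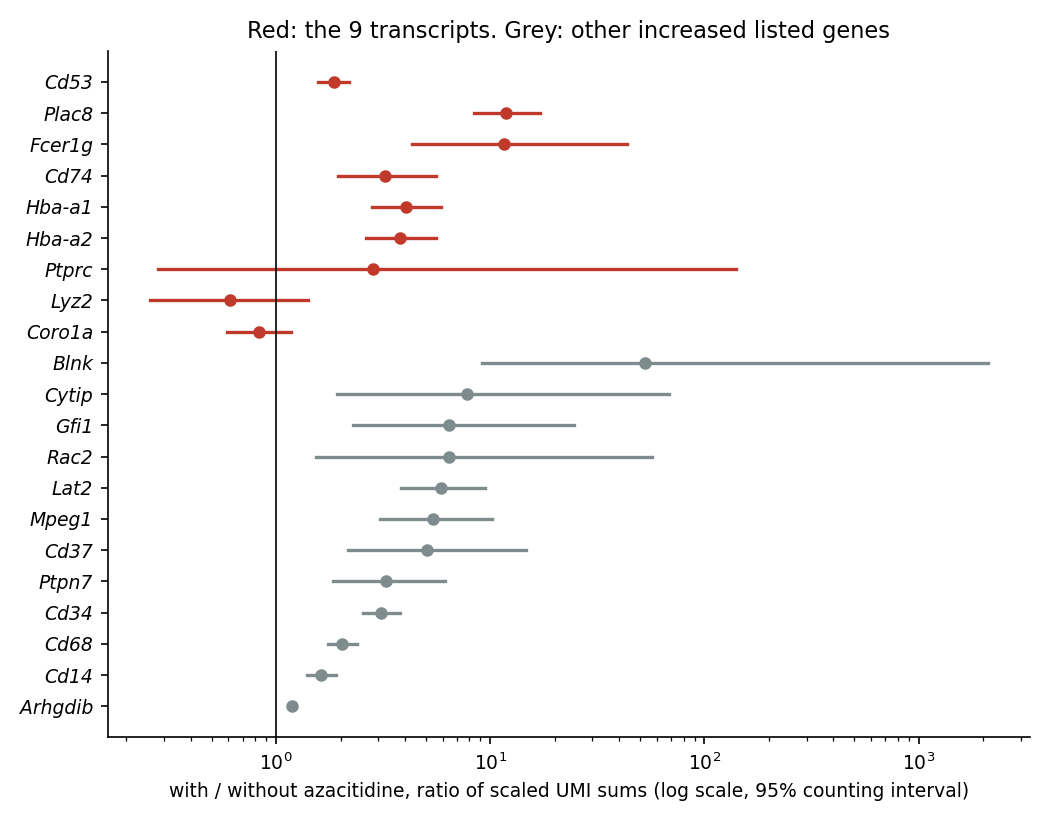
Ratio of scaled UMI sums with over without azacitidine for each member on a log axis, with exact 95% counting intervals. Plac8 lies at 11.8 and Cd53 at 1.86, Coro1a lies at 0.832, and the interval of Ptprc spans 0.281 to 140.

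Ratios within the 4 runs are given next. Plac8 was higher with azacitidine in all 4 runs, with ratios of 20.2, 11.8, 5.24 and 13.8, and so was Cd53, with 2.02, 2.41, 1.81 and 1.49. Fcer1g gave 8.39, 6.62 and 4.47 in runs 1, 3 and 4, and went from 0 to 32 UMIs in run 2. Cd74 gave 3.15, 4.75, 2.21 and 0.895, with its treated level at 2.00 and 4.64 CPM in runs 1 and 2 and at 0.67 and 0.84 in runs 3 and 4. Hba-a1 gave 3.71, 1.79, 4.69 and 6.16, and Hba-a2 3.33, 20.5, 2.90 and 3.37, where the 20.5 rests on 1 untreated UMI. Coro1a gave 1.08, 0.891, 0.736 and 0.263 (0.0759 to 0.743 in run 4).

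Whether the effect of azacitidine differed between runs was tested as an interaction, which the choice of the members did not use. In edgeR 3.02% of the 9344 filtered genes were called for it. Neither of the 2 tested members was called (adjusted p = 0.44 and 0.66), and neither passed an unadjusted p of 0.05. Without the filter 3.11% of genes were called and none of the 9 members was (lowest adjusted p = 0.56 in edgeR and 0.53 in DESeq2), with none at an unadjusted p under 0.05 by either tool. The spread between runs seen for Cd74 and for Hba-a2 was therefore not shown to exceed that between libraries.

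**Figure D4:**
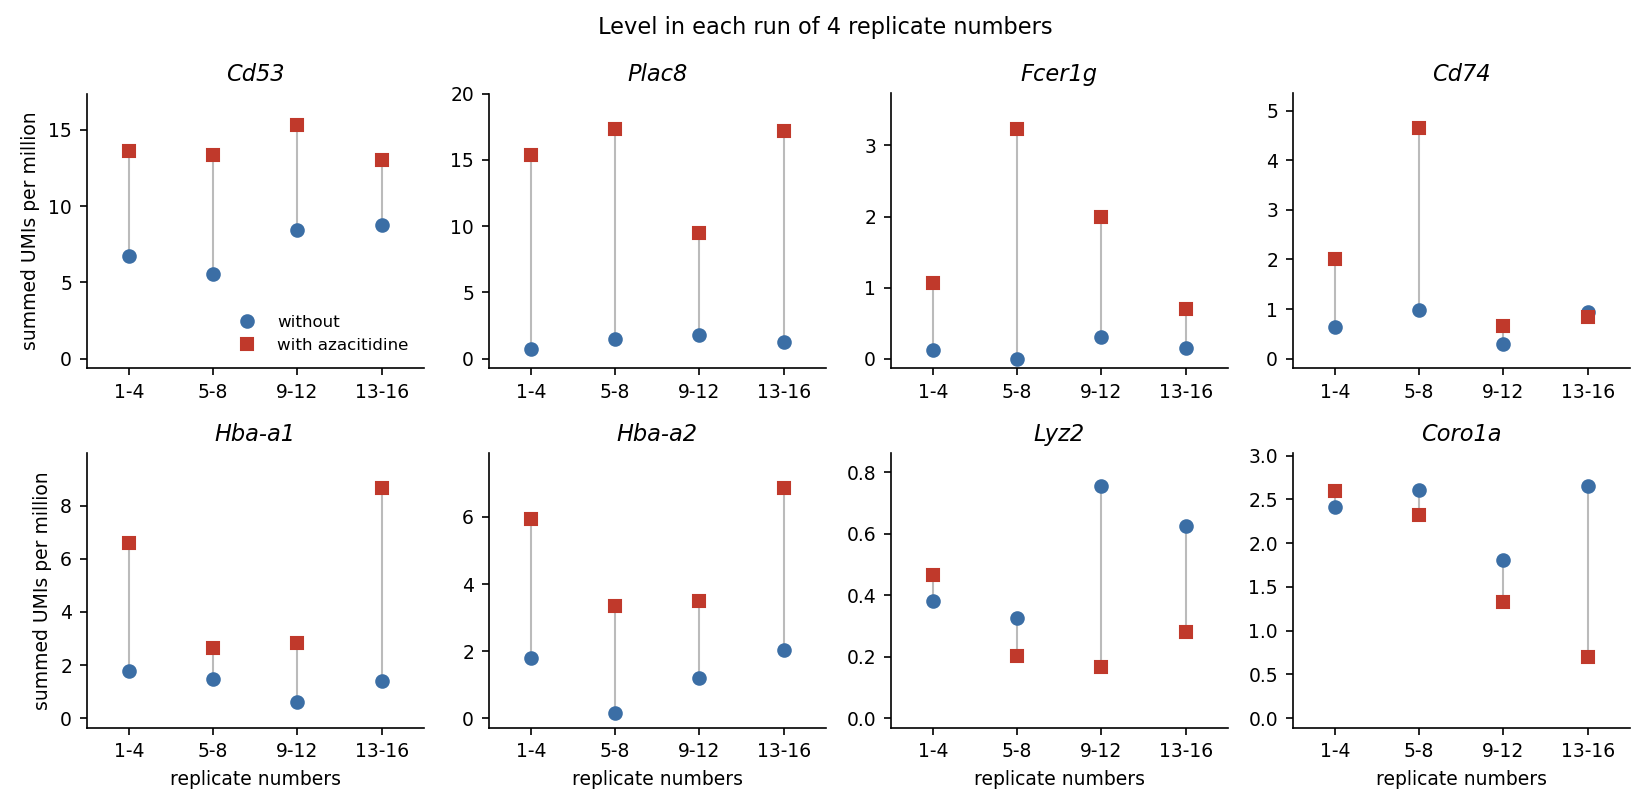
CPM from summed UMIs (y axis) of 8 members, without Ptprc, in each of the 4 runs of replicate numbers (x axis), for libraries without (circles) and with azacitidine (squares). Cd74 with azacitidine stands at 4.64 in run 2 and at 0.67 in run 3, and Plac8 with azacitidine stands above Plac8 without it in all 4 runs.

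The wider blood programme was followed in 12 lists of marker genes for leukocytes, their lineages and their pathways, which named 169 genes besides the members. Of these, 110 had a row and 16 passed the filter. With azacitidine 4 of the 16 rose, namely Arhgdib, Cd68, Cd14 and Cd34, and 2 fell, namely Mecom and Meis1. Of all 9344 filtered genes 3.65% were called higher and 2.00% lower. The median log2 fold change of the 16 was 0.0054, against 0.00086 over all 9344 genes. Without the filter 13 of 109 rose and 2 fell, with a median of 0.37 against 0.036 over all 21822 genes; 3.21% of those were called higher and 0.729% lower. The 13 were the 4 named and Rac2, Cd37, Cytip, Ptpn7, Mpeg1, Ctss, Blnk, Gfi1 and Lat2. Of the 13, 10 were called in DESeq2 as well, without Ctss, Cytip and Rac2.

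Most of the listed genes were close to absent. Of the 110, 31 had no UMI in any untreated library and 9 had none in any treated library, and 60 had fewer than 10 UMIs with azacitidine. When each library was thinned to 818619 UMIs, 70 of the 110 were seen without and 79 with azacitidine, which is 63.6% and 71.8%, while of all 21829 genes 83.7% and 86.4% were seen. At equal depth more genes were therefore seen with azacitidine both in the lists and among all genes.

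The blood lists held genes at very different levels. Several that define leukocytes, chosen here after their values were seen, had no more than 1 UMI in a group. Spi1 had 0 and 1 UMIs, Vav1 1 and 1, Dock2 0 and 1, and Itgal 0 and 1 without and with azacitidine. Adgre1 (F4/80) and Fcgr1 had 0 and 1 each. Other genes of the same lists were well above 0 in both groups, such as Arhgdib and Trem2 given below, and Ptpn6, a phosphatase of blood cells, with 96 and 148 UMIs. Lat2, a transmembrane adaptor of myeloid and B cells, had 24 and 199 UMIs, a ratio of 5.89 (3.85 to 9.41), and each of the 16 treated libraries lay above every untreated library (edgeR without the filter, adjusted p = 9.2e-11). Such a gap was found for 0.206% of all genes. Blnk, the adaptor of the B cell receptor, had 1 UMI without and 74 in 14 of 16 libraries with azacitidine, a ratio of 52.5 with an interval of 9.14 to 2103 (adjusted p = 4.1e-08). Mpeg1, the macrophage pore protein perforin-2, had 14 and 106 UMIs, a ratio of 5.38 (3.07 to 10.2, adjusted p = 3.3e-05).

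Cd37, like Cd53 a leukocyte tetraspanin, had 6 and 43 UMIs, a ratio of 5.09 (2.16 to 14.6, adjusted p = 0.019), and lost its call with the replicate number as a block and without the 5 libraries set apart. Ptpn7, a phosphatase of lymphoid and myeloid cells, had 15 and 69, a ratio of 3.27 (1.85 to 6.15, adjusted p = 0.0085). Gfi1, a transcriptional repressor of granulocyte differentiation, had 4 and 36, a ratio of 6.39 (2.29 to 24.7, adjusted p = 0.0052), and lost its call without those 5 libraries. Ctss, a lysosomal protease that cuts the invariant chain, had 0 and 19 (adjusted p = 0.0014), and lost its call with DESeq2. Its level was 4.50-fold higher against the limit of 3 UMIs in the summed untreated group, with counting error in the 19 left aside. The lower end of the exact counting interval of its ratio was 3.31. Cytip and Rac2 went from 2 to 22 and from 2 to 18 UMIs. Rac2 (adjusted p = 0.047) was lost with DESeq2, with the run as a term, with the replicate number as a block and without the 5 libraries set apart, and Cytip with DESeq2 and with the block (adjusted p = 0.010 in edgeR).

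The lists for monocytes and macrophages and for stem cells held markers that the line already expressed. Cd68, a lysosomal glycoprotein of macrophages, went from 8.02 ± 2.76 to 15.8 ± 5.04 CPM (SD; log2 fold change 1.00, SE 0.16, adjusted p = 3.0e-05). Cd14, the lipopolysaccharide co-receptor, went from 8.22 ± 3.24 to 13.5 ± 3.39 (0.70, SE 0.16, adjusted p = 0.0028). Cd34, a sialomucin of stem cells and of endothelial and stromal cells, went from 4.40 ± 2.56 to 14.8 ± 4.41 (1.65, SE 0.21, adjusted p = 4.6e-07). Mecom and Meis1, transcription factors of stem cells and stroma, fell from 28.7 ± 5.54 to 19.2 ± 5.64 and from 43.2 ± 5.88 to 34.0 ± 7.30 CPM (log2 −0.60, SE 0.12, adjusted p = 0.0014, and −0.34, SE 0.09, adjusted p = 0.019). Arhgdib, a signalling regulator abundant in blood cells, rose by less, from 303 ± 21.0 to 357 ± 24.2 CPM (0.24, SE 0.04, adjusted p = 9.7e-05). On spike-in scaling Arhgdib, Mecom and Meis1 did not pass. Trem2, a macrophage receptor that the line expressed at 129 ± 22.4 CPM without and 136 ± 34.7 with azacitidine, did not pass (adjusted p = 0.84).

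**Figure D5:**
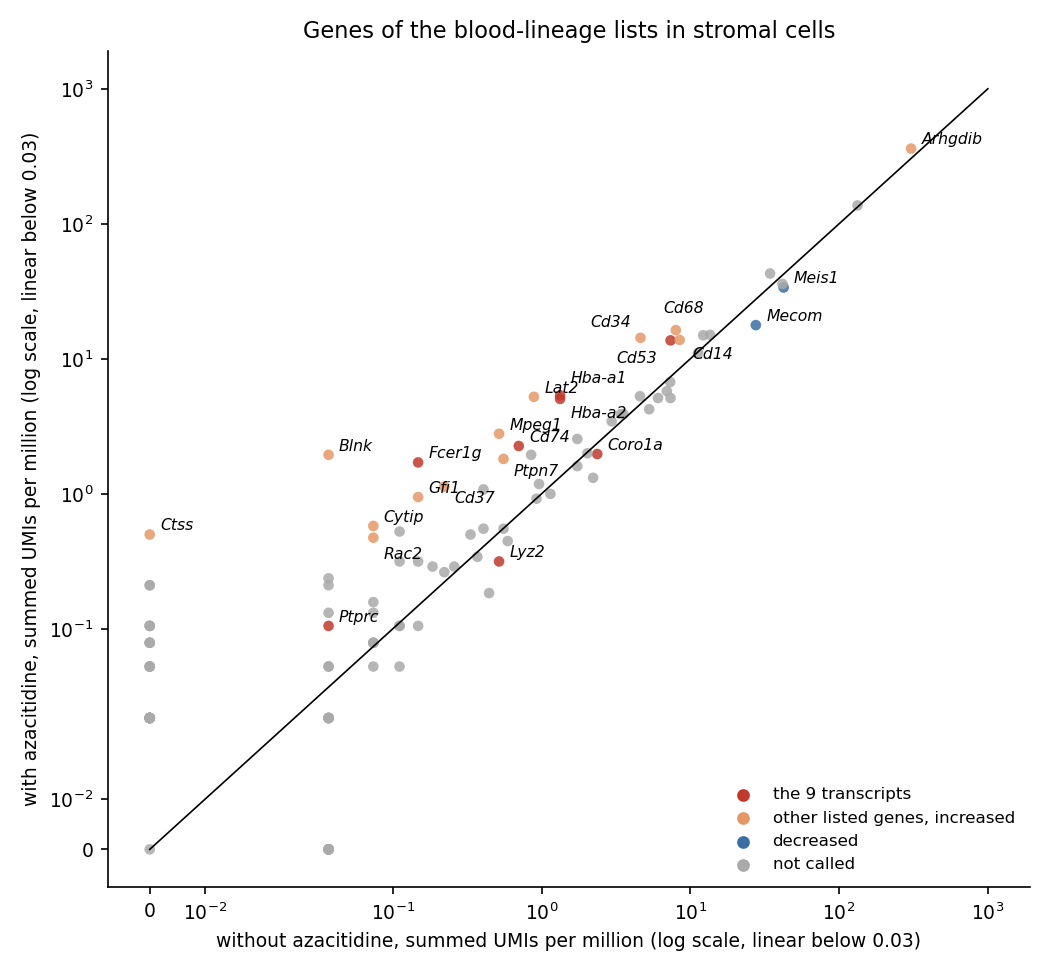
Genes of the blood-lineage lists, UMIs summed over a group and scaled to CPM, without (x axis) against with azacitidine (y axis), on log axes that turn linear near 0; the line marks equal levels. Blnk and Lat2 lie above the line at ratios of 52.5 and 5.89, Mecom and Meis1 lie below it, and Coro1a lies next to it.

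Many of the pathway partners of Cd74 and of the Hba genes were low, and in those only large changes could be seen. Calls among the partners stand beside 3.21% of all genes called higher without the filter. In the class II pathway, which Cd74 serves, none of the other 6 genes was called without the filter in edgeR, none passed an unadjusted p of 0.05, and DESeq2 called none. Ciita, the switch of class II transcription, had 1 UMI in each group, H2-Ab1 had 11 and 21 UMIs, and H2-Eb1 had 1 and 0. H2-DMa, a peptide-exchange chaperone, stood at 7.33 ± 2.47 and 7.28 ± 2.41 CPM (SD). H2-DMb1 had 1125 and 1364 UMIs, a ratio of 0.861 (0.795 to 0.933). H2-DMb2 had 188 and 219, a ratio of 0.827 (0.678 to 1.01). Both passed the filter and neither was called there (edgeR, adjusted p = 0.41 for each). In the erythroid list none of the other 13 genes was called in edgeR or DESeq2 and none passed an unadjusted p of 0.05. Hbb-bs, the adult beta globin, had no UMI in either group, Klf1 had 6 and 10, Alas2 and Slc4a1 had no more than 1, and Hbq1b had 3 and 12 (2.84, 0.767 to 15.7). The summed CPM of these 13 erythroid genes ran from 2.72 to 10.0 without and from 2.93 to 13.9 with azacitidine. Of the 177 and 227 UMIs behind these sums, Epor alone held 164 and 195, a ratio of 0.844 (0.682 to 1.05). The ranges thus mostly describe Epor and say little about the rest of the list.

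Of the Fc receptor and ITAM list, 1 of the other 9 genes rose in edgeR without the filter, which was Lat2, against 3.21% of all genes. Plcg2, a phospholipase that acts downstream of such receptors, had 60 and 50 UMIs and was not called. Among the relatives of Cd53, 1 of 25 other tetraspanins rose, against 3.21% of all genes, which was Cd37 with the losses given above, and the widespread Cd63, Cd9 and Cd81 were not called. Cd9 stood at 251 ± 16.8 and 275 ± 23.1 CPM (adjusted p = 0.083). Among the relatives of Coro1a, none of the 6 other coronins was called, none at an unadjusted p of 0.05, and DESeq2 called none. Over all genes without the filter, edgeR called 3.21% higher and 0.729% lower. Coro1b had 249 ± 23.3 and 249 ± 22.1 CPM (SD). Markers of stroma were high in both groups, with 13037 to 18441 CPM summed over the list without and 10359 to 17221 with azacitidine. Of the 14 tested stromal genes Vcam1 rose and 4 fell, the collagen genes Col1a1, Col1a2, Col3a1 and Col5a1, and none of the 5 passed on spike-in scaling. Of all filtered genes 3.65% were called higher and 2.00% lower. Col1a2 fell from 2033 ± 226 to 1552 ± 309 CPM (log2 −0.39, SE 0.08, adjusted p = 0.0010).

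Other genes had patterns like those of Cd53 and Plac8 over the 8 means of run and group. The nearest to Cd53 in centred log2 CPM were Lncenc1 (distance 0.31), Clu (0.51) and Sigirr (0.59). Clu, which encodes the secreted chaperone clusterin, went from 243 ± 65.7 to 440 ± 65.7 CPM. The nearest to Plac8 were Gtsf1 (0.99), Platr14 (1.02) and Sohlh2 (1.05). Gtsf1, a cofactor of the piRNA pathway in germ cells, went from 0.56 ± 0.57 to 11.4 ± 4.11 CPM, and Sohlh2, a germ cell transcription factor, from 0.64 ± 0.69 to 10.2 ± 2.42. For Gtsf1, Platr14 and Sohlh2 each of the 16 treated libraries lay above every untreated library. Such a gap was found for 0.278% of the filtered genes. Plac8, to which they were matched, has it too, so the choice favours it. Likeness was measured on the same libraries and the genes were chosen for it, so no test is given.

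The nearest genes with at least 20 UMIs on either side of each member made 16 neighbours that were not members themselves. In edgeR without the filter none of the 16 was called. Of the 16, 3 passed an unadjusted p of 0.05, and DESeq2 called 1. Cops4, 5.9 kb from Plac8, had a ratio of 1.03 (0.996 to 1.06) and Tcof1, 1.1 kb from Cd74, a ratio of 0.934 (0.884 to 0.986). Nprl3, 15.8 kb from Hba-a1, whose introns hold the distant enhancers of alpha globin, had a ratio of 1.05 (0.968 to 1.15). The 11 neighbours with the most UMIs, 1130 or more in all libraries, had ratios between 0.900 and 1.08.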

How the data were processed

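The authors' deposited table gives UMI counts for each gene in each library, and its values show no normalization. Per the labels' protocols polyadenylated RNA was converted to barcoded, pooled cDNA with UMIs. Per the submitters' processing notes the tools included bedtools 2.17.0 and STAR 2.4.0, with mm10 as the build; how UMIs were collapsed, the annotation and the use of strand are not given in the sources used here. Of 21897 lines, 68 were spike-in RNAs and stayed out of library sizes and tests. Of 21829 mouse genes 21506 had a symbol and position in GENCODE mouse release M21. EdgeR 4.0.16 (quasi-likelihood, robust, two-sided, TMM on the genes that pass the default filter at a minimum count of 10, Benjamini-Hochberg adjusted p under 0.05 over all tested genes) in R 4.3.3 was the main test, with DESeq2 1.42.0 and limma 3.58.1 (voom) as alternatives. Counting intervals are exact conditional ones for a ratio of 2 Poisson sums. Promoters came from RefSeq, and scripts ran in Python 3.11.15 with scipy 1.17.1.

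The members, lists and tests were chosen with earlier results of these data known. The rule for named genes took the 9 members, up to 4 called genes of each list in order of p, up to 4 untested genes with the most UMIs, 3 genes nearest in Euclidean distance to each filtered member, and the nearest neighbours. Rac2, Cytip, Ctss, Trem2, Thy1, Lsp1, Itgb2, Itga2b, Cd9, Cd63, Cd81, Coro1b, Vcam1, the genes of the closing section and the markers near 0 were named after their values were seen. On simulated counts of the filtered genes edgeR recovered 97.0% of 2-fold changes between the groups. Of its calls there, made over 9234 genes, 4.06% were false. In the interaction test it recovered 94.5% of 4-fold changes confined to 1 run. Of those calls, made over 9237 genes, 2.58% were false. Fits without the filter were not simulated. Values of some listed genes and neighbours are not reported here.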

Additional observations from a re-analysis of the deposited data

Results flagged for a closer look

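The effect of azacitidine differed between the 4 runs of replicate numbers for 7 of the 14 tested genes of the stromal list and for 3 of the 16 tested tetraspanins other than Cd53, in edgeR's interaction test with adjustment over all tested genes, of which 3.02% were called. The adjusted p was 0.0067 for Col1a1, 2.3e-06 for Col1a2, 0.015 for Col3a1, 5.3e-05 for Cxcl12, 0.012 for Dcn, 1.7e-07 for Postn and 0.018 for Sparc. It was 0.015 for Tspan3, 0.037 for Tspan4 and 0.0064 for Tspan7. In runs 1 to 4 the log2 ratio of the scaled sums was −0.28, −0.79, −0.10 and −0.25 for Col1a1, −0.20, −0.86, −0.24 and −0.34 for Col1a2, and −0.55, −0.95, −0.47 and −0.66 for Col3a1. Postn gave 0.33, −1.32, 0.33 and −0.12, and Tspan7 gave 0.11, −0.98, −0.30 and −0.29. Of the 10 genes, 9 had their lowest log2 ratio in run 2, and Dcn, with 0.056 in run 2, had its lowest, −0.42, in run 4. In run 2 Cd74 had its highest treated level and Fcer1g had 32 of its 65 treated UMIs. Neither was called in edgeR's interaction test without the filter (adjusted p = 0.84 for Cd74 and 0.89 for Fcer1g).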

How the results depend on the processing

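No result changed direction past its threshold, and the 6 higher members kept a positive log2 ratio under each scaling tried, after thinning, without numbers 1 to 4 and without the 5 libraries set apart: 0.76 to 1.20 for Cd53, 3.33 to 3.87 for Plac8, 3.53 to 3.83 for Fcer1g, 1.66 to 1.99 for Cd74, 1.67 to 2.31 for Hba-a1 and 1.85 to 2.22 for Hba-a2. Coro1a ran from −0.63 to 0.04. Ptprc was at 1.51 and on spike-in scaling at 1.81. Lyz2 was at −0.72, at −1.40 without numbers 1 to 4 and at −1.44 without the 5 libraries set apart. Over all genes 341 were called higher; the count was 522 with the replicate number as a block, 700 with no filter, 170 after thinning and 563 with the run as a term. The 187 called lower became 379, 76 and 429 with the block, thinning and the run term, and 1 on spike-in scaling. Of the blood lists 4 rose; 13 did with no filter and 2 after thinning. In fits added after the data were seen, all with no filter, 10 rose with DESeq2, 15 with the run term, 11 with the block and 10 without the 5 libraries. The 2 that fell became 0 on spike-in scaling and 1 after thinning, where fewer UMIs were left. The interaction was called for 282 genes, for 678 with no filter and for 159 after thinning. The cause of the other changes was not tested. Replicate numbers were shared by the groups. Same-number correlations of deviations ran from −0.29 to 0.83 (median 0.18), against a median of −0.0086 for other numbers, and 12 of 16 pairs were over 0.1. Since 4 of 16 untreated libraries correlated best with their own number, the numbers were not taken to pair the samples. These values do not settle the pairing, so counts with the block and with the run term are given above. Depth limits Ptprc, Lyz2 and the markers near 0, for which only large changes could be seen.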

Other observations

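Thy1, a surface glycoprotein of T cells and of many stromal cells, had no UMI in the 16 untreated libraries and 26 in 12 of the 16 treated libraries (edgeR without the filter, adjusted p = 0.00032). That is 6.15-fold higher when the summed untreated group is set at the limit of 3 UMIs, with counting error in the 26 left aside. Several other genes of blood lists were well expressed in the line and did not pass: Lsp1 stood at 35.6 ± 9.95 and 43.7 ± 7.97 CPM (SD, adjusted p = 0.10), Itgb2 at 13.7 ± 3.92 and 14.7 ± 4.33 (adjusted p = 0.73), and Itga2b at 11.3 ± 2.53 and 10.6 ± 3.79 (adjusted p = 0.92). Cd79a, a chain of the B cell receptor, had 0 UMIs without and 8 with azacitidine.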
